A study of Homo sapiens with 6 samples.

Results

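The constant genes of the 3 human immunoglobulin loci were described by the accessible regions around them in GM12878, a B-lymphoblastoid cell line grown from 1 donor. The members were 9 genes: IGHM, IGHD, IGHG1, IGHA1 and IGHA2 of the heavy chain on chromosome 14, IGKC of the kappa light chain on chromosome 2, and IGLC1, IGLC2 and IGLL5 of the lambda light chain on chromosome 22. Every peak within 50 kb of the body of one of these genes was taken, and overlapping peaks of the 6 libraries were joined into regions. This gave 9 regions of 56447 in all, of which 3 were in the heavy chain windows, 4 in the kappa window and 2 in the lambda window.

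In a B cell, an antibody chain is read from a rearranged variable exon, which is joined by splicing to a constant exon that lies further along the locus. IGHM and IGHD encode the first heavy chains a B cell makes, and class switching later places IGHG1, IGHA1, IGHA2 or another constant gene next to the variable exon. Transcription is driven from the variable gene promoters and helped by enhancers near the constant genes, namely Eμ in the intron between the heavy chain joining segments and IGHM, a group of elements 3′ of each IGHA gene, elements inside and 3′ of the kappa locus, and elements 3′ of the lambda constant genes. IGLL5 is a lambda-like gene whose last exon is shared with IGLC1. All positions are in hg19, the unrearranged reference order.

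The 6 bulk ATAC-seq libraries came from 3 protocols for releasing the fixed DNA. For the unpurified workflow the methods also give another detergent level in the lysis buffer, an EDTA quench and a discarded supernatant, steps that the labels give for all 6 libraries, so a part of lysis or transposition in the comparisons cannot be told apart from the buffer. ATAC-seq uses the Tn5 transposase to cut open DNA and tag it. All cells were fixed with 1% formaldehyde, and reverse crosslinking ran overnight at 65 °C. The old buffer held SDS and was followed by purification, the new buffer held none and was followed either by purification or directly by PCR (unpurified, the bulk Pi-ATAC workflow), with 2 replicates of each. Nothing says that replicates came from separate cultures, so p-values measure the spread between these libraries, which may be technical.

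The lists held 30136 to 38023 peaks per library, and purified replicate 2 had the shortest list. The median peak had 20 to 22 reads at its summit and the smallest listed peak had 8 or 9, so weaker accessibility was not detectable at this depth. The lowest local background, which follows depth, differed by 1.24 times at most between libraries. The B-cell label was checked against promoters: all 10 B-cell marker genes had a region within 1 kb of an annotated start, and 5 of the 10 had one in all 6 libraries. A region lay at the start of 1 of 6 T-cell genes (CD8A), 1 of 5 myeloid genes (CD14), 1 of 5 erythroid genes (EPOR) and 0 of 5 epithelial genes.

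The sequences of 5 regions are shown because the values turn on them: the region nearest to Eμ, the one 3′ of IGHA1, the best-supported kappa region and both lambda regions. Each run is 300 bases of the hg19 plus strand, centred on the summit of the region's strongest peak, with matches to the searched motifs in capitals.
IGHM-IGHJ6 region, chr14:106328184-106328483: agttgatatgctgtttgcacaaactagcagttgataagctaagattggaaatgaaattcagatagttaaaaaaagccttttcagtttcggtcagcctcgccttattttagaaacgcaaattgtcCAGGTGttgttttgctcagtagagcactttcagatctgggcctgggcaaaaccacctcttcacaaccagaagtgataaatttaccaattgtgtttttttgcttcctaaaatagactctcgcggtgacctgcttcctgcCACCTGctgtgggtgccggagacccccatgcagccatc
Region 3′ of IGHA1, chr14:106167300-106167599: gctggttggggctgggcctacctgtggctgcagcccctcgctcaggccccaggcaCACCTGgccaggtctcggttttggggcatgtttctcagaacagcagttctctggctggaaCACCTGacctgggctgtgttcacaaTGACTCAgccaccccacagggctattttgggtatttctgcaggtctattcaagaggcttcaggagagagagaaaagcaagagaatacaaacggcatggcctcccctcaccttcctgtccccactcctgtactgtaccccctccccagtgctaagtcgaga
Region 3′ of IGKC, chr2:89131159-89131458: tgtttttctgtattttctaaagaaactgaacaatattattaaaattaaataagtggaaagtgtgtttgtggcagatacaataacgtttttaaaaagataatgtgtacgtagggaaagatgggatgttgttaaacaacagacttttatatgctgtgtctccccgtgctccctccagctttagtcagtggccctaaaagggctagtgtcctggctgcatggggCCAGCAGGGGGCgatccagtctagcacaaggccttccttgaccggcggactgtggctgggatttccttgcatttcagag
Near lambda region, chr22:23270963-23271262: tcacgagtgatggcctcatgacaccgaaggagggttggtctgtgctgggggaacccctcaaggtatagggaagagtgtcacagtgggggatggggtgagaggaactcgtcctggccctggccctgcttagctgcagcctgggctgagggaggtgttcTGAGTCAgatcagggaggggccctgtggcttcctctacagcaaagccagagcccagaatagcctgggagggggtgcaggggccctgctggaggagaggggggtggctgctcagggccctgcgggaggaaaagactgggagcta
Far lambda region, chr22:23277914-23278213: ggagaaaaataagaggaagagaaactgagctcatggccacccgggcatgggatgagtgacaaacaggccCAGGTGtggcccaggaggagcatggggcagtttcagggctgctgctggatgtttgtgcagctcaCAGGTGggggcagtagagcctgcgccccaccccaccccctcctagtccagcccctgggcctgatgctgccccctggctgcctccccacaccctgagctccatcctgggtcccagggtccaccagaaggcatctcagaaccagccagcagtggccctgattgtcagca

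The motifs searched on both strands were the octamer ATGCAAAT, known from immunoglobulin promoters and enhancers, the E box CAGGTG, the NF-kB site GGGACTTTC, the ETS site GAGGAAGT, the AP-1 site TGANTCA, the RUNX site TGTGGT and the CTCF core. No 2 matches overlapped. The E box was found in 4 of the 9 windows, against 21.4% of the windows of the same length over all regions, and the AP-1 site in 3 of 9, against 18.5%. The IGHM-IGHJ6 region held E boxes at 23 bases before and 115 bases after the summit. The far lambda region held 2 E boxes, 78 and 14 bases before its summit, and the near lambda region an AP-1 site 10 bases after its summit. The region 3′ of IGHA1 held 2 E boxes and an AP-1 site 7 bases before the summit. The region 3′ of IGKC held the CTCF core 77 bases after its summit, a motif found in 3.33% of all windows. The ETS site was found in 1 kappa window, against 3.81%. The octamer, the NF-kB site and the RUNX site were in none of the 9 windows, against 3.48%, 1.44% and 29.0% of all windows. These are matches of letters, not sites.

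None of the 9 regions touched the body of a member gene or any annotated exon, and none of the 9 genes had a region within 1 kb of an annotated start. Over 20163 protein-coding genes, 62% had a region at a start. The shares are of unlike things, since transcription is driven from the variable gene promoters. Except for IGLL5, the members are constant gene records, whose annotated start is not the promoter of the antibody chain. IGHM (chr14:106318037-106322323) and IGHD (chr14:106303099-106312010) lay together in a stretch of 43.2 kb with no peak of any library. IGHG1 (chr14:106202680-106209408) and IGHA1 (chr14:106170332-106175002) lay in one of 117 kb. IGHA2 (chr14:106053226-106054732) lay in one of 210 kb and had no region at all within 50 kb. IGKC (chr2:89156674-89157196) lay in a stretch of 34.8 kb, and IGLL5 (chr22:23229960-23238291), IGLC1 (chr22:23237555-23238014) and IGLC2 (chr22:23243156-23243617) together in one of 618 kb. Thus all 9 constant genes were in sequence where no library listed a peak, and the listed accessibility was between, 5′ or 3′ of them. Whether the rearranged loci of GM12878 still hold all of this reference sequence was not tested.

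**Figure D1:**
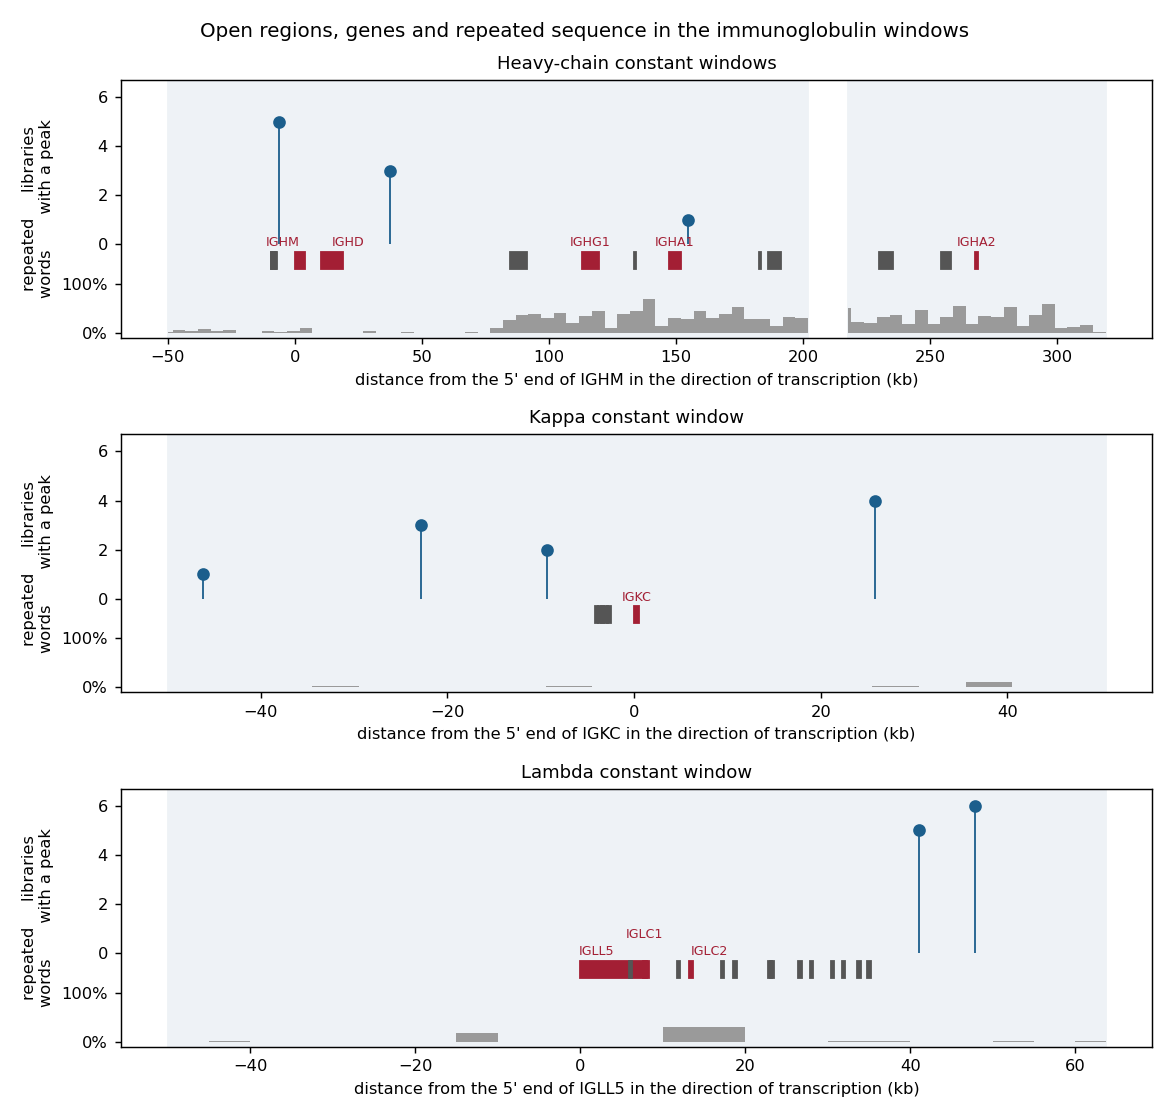
Map of the windows, drawn in the direction of transcription from the 5′ end of IGHM, IGKC or IGLL5 (x axis, kb). Blue stems give the number of libraries, 0 to 6, with a peak in each region, red boxes are the member genes, dark grey boxes other listed genes, and light grey bars the percent of 75-base words found more than once in the genome, per 5 kb. No stem stands on a red box, and the tallest stem, at 6 libraries, is the far lambda region.

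In the heavy chain locus the best-supported region lay 797 bp from IGHJ6 and 5.84 kb 5′ of IGHM (chr14:106328165-106328611), in the interval where Eμ is known to lie. Its summit had 15 and 19 reads with the old buffer, 20 and 19 with the purified new buffer, and 16 in unpurified replicate 1. Unpurified replicate 2 listed no peak there. So 5 of 6 libraries called it, and all 5 values were under or at the median summit of 20 to 22 reads. Its fold enrichment over the local background was 3.92 to 5.05, and 5.99% to 38.4% of the peaks of a library were weaker by −log10 q. It was thus among the weaker peaks in every list that held it.

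The second heavy chain region (chr14:106284322-106284994) lay 18.1 kb 3′ of IGHD, between IGHD and IGHG3. It had 12 reads in old-buffer replicate 1, 12 in purified replicate 1 and 18 in unpurified replicate 1. The other 3 libraries, 1 of each protocol, listed no peak there, so no protocol was without it. The third (chr14:106167337-106167571) lay 2.76 kb 3′ of IGHA1, on the side where the 3′ enhancers lie, and was listed only in purified replicate 1, with 15 reads and a fold enrichment of 5.84. No library listed a peak in the matching 50 kb 3′ of IGHA2.

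The kappa window held the most regions and none that all libraries listed. The best supported (chr2:89131177-89131606) lay 25.1 kb 3′ of IGKC, within the long non-coding RNA gene ENSG00000240040 but in none of its exons. It had 17 and 13 reads with the old buffer, 16 in purified replicate 1 and 17 in unpurified replicate 2. Purified replicate 2 and unpurified replicate 1 listed no peak. Its place in the lists was higher than that of the IGHM-IGHJ6 region, with 28.0% to 48.1% of peaks weaker, although its reads were not, beside a lower local background (1.52 to 1.86 against 2.88 to 3.68 reads). The kappa intron between the joining segments and IGKC, where another enhancer is known, held no peak of any library.

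The other kappa regions lay 5′ of the joining segments. One (chr2:89166359-89166664), 9.16 kb 5′ of IGKC, had 12 and 14 reads with the old buffer and no peak in the other 4 libraries. Of all regions, 1.16% were listed in both old-buffer libraries and in no other, so 1 of 9 members is no more than a description. The next (chr2:89179720-89180260), 22.5 kb 5′ of IGKC, had 15 reads in old-buffer replicate 2 and 10 and 13 with the purified new buffer, and none of the other 3 libraries listed it. The last, between IGKV5-2 and IGKV7-3, was listed in 1 library with 11 reads.

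**Figure D2:**
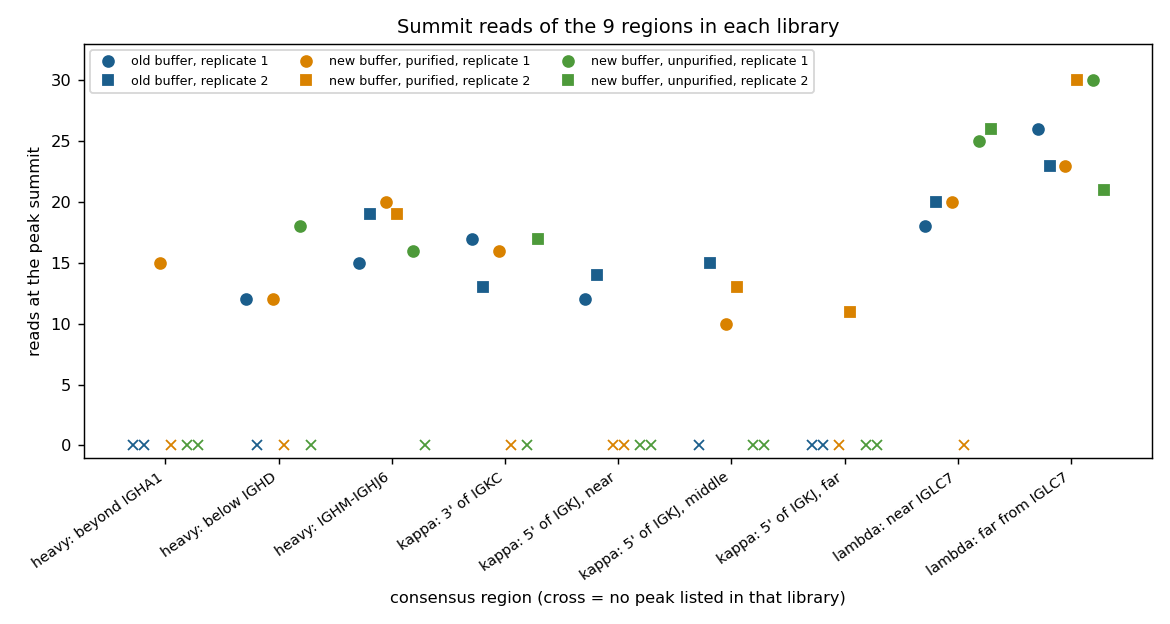
Reads at the peak summit (y axis) of each of the 9 regions (x axis) in each library, coloured by protocol, with circles for replicate 1 and squares for replicate 2. Crosses at the bottom mark libraries that list no peak in the region. The far lambda region has no cross, and its 6 values lie between 21 and 30 reads.

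The lambda regions stood highest of the 9 by −log10 q and by summit reads. By fold enrichment the region 3′ of IGKC had a mean of 58.9% of peaks weaker over its 4 libraries. The far lambda region had 57.9% over its 6. Where both were listed, the IGKC region had the higher fold in old-buffer replicate 1 (6.56 against 6.05) and unpurified replicate 2 (6.29 against 4.8). The far lambda region had the higher fold in old-buffer replicate 2 (6.25 against 5.55) and purified replicate 1 (6.74 against 6.6). Both lambda regions lay 3′ of IGLC7, the last lambda constant gene, where the lambda enhancer is known to lie. The far one (chr22:23277393-23278237), 12187 bp from IGLC7 and 33.8 kb from IGLC2, was the only member that all 6 libraries listed. It had 26 and 23 reads with the old buffer, 23 and 30 with the purified new buffer, and 30 and 21 with the unpurified new buffer. The 3 protocols overlapped, since each pair of replicates fell within 21 to 30 reads. Its fold enrichment was 4.8 to 6.92, and 60.6% to 72.9% of peaks were weaker in 5 libraries, against 38.3% in unpurified replicate 2.

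The near lambda region (chr22:23270819-23271300), 5613 bp from IGLC7, had 18 and 20 reads with the old buffer, 20 in purified replicate 1, and 25 and 26 with the unpurified new buffer. Purified replicate 2 listed no peak. Both unpurified read values lay above the other 3, beside a higher local background (3.36 and 3.5 against 2.2 to 2.6 reads). How many of all regions show such an order was not counted. The fold enrichments overlapped, at 5.96 and 6.0 unpurified against 5.28, 6.56 and 6.14. The region did not enter the test because 1 library did not list it. Between 36.2% and 60.6% of peaks were weaker.

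**Figure D3:**
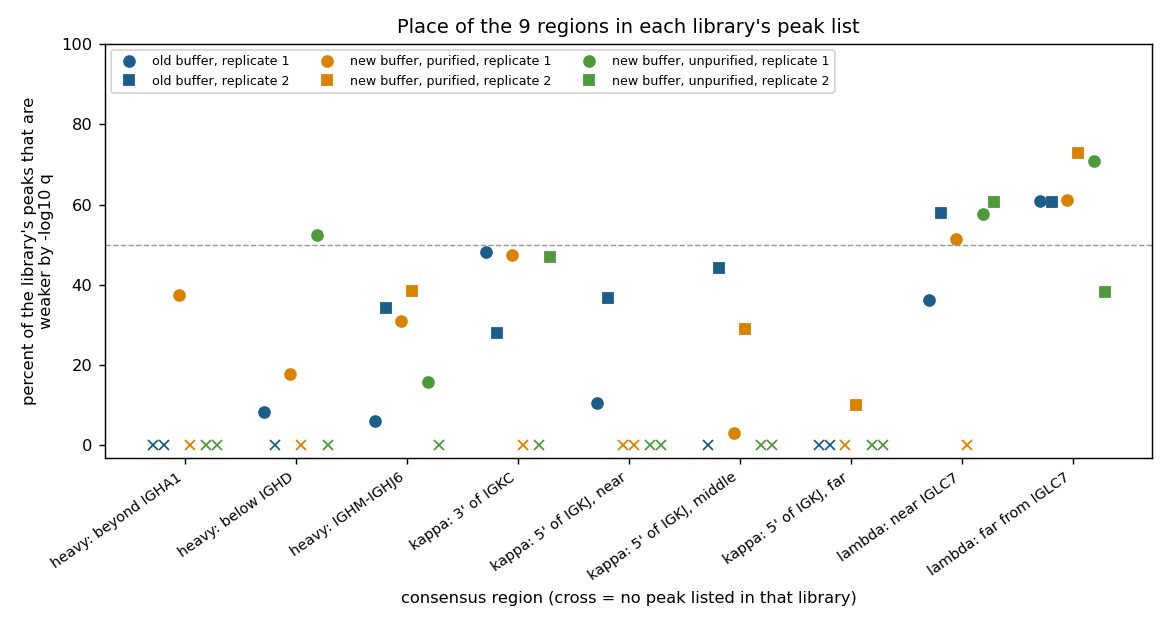
Percent of a library's peaks that are weaker by −log10 q (y axis) for each region (x axis), with the colours and symbols of the plot of summit reads. The dashed line marks the middle of a list, and crosses at the bottom mark libraries with no listed peak. Only the far lambda region is above the line in as many as 5 libraries.

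The protocols were compared with limma on the log2 summit reads of the 20064 regions that all libraries listed, each library centred on its median, so the far lambda region was the 1 member tested. Purified new buffer minus old buffer was 0.13 on the log2 scale (SE 0.264, 95% interval -0.394 to 0.654, adjusted p = 0.92). Unpurified minus old buffer was -0.04 (SE 0.264, interval -0.562 to 0.486, adjusted p = 0.985). Unpurified minus purified was -0.17 (SE 0.264, interval -0.693 to 0.355, adjusted p = 1). The comparisons share libraries. None of the 3 differences was larger than the spread between replicates, and each interval still allows a change of the size of its ends. Over all tested regions the shares past an adjusted p of 0.05 were 0.0449%, 0.0199% and 0%. At an unadjusted p under 0.05, limma gave 8.58%, 8.44% and 4.31% of the tested regions. For the last comparison these were 865 regions, and 0 after adjustment. The first difference turned sign without purified replicate 2 (-0.19) and the second without unpurified replicate 2 (0.20). The third turned sign without either of them (0.15 and 0.06).

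By library, 6 and 7 peaks lay in the windows with the old buffer, 7 and 4 with the purified and 4 and 3 with the unpurified new buffer. Counted as regions, the values were 6 and 6, 7 and 4, and 4 and 3. The peaks were 0.0159% and 0.0201% of the whole lists with the old buffer. The shares were 0.0184% and 0.0133% with the purified and 0.011% and 0.00871% with the unpurified new buffer. The mean peak counts were 6.5 ± 0.707, 5.5 ± 2.12 and 3.5 ± 0.707 (SD, n = 2 each). The unpurified and old-buffer libraries did not overlap in these peak counts, while their whole lists did (36252 and 34438 against 37654 and 34826 peaks). The exact two-sided permutation test of the counts gave p = 0.333, the smallest that 2 libraries against 2 allow. No outcome of this test could pass 0.05, so it decides nothing about the protocols. The same exact test gave p = 0.667 for unpurified against purified and p = 1 for purified against old buffer, and all 3 were 1 after Benjamini-Hochberg adjustment. The kappa window alone held 2 and 3 peaks with the old buffer, 2 and 2 with the purified new buffer and 0 and 1 with the unpurified. These few peaks were not tested by window. The kappa region 9.16 kb 5′ of IGKC was listed in both old-buffer libraries and in neither unpurified one. So were 2.82% of the 51347 regions compared. The kappa region 22.5 kb 5′ of IGKC was listed in both purified libraries and in neither unpurified one. That held for 1.76% of the 49890 regions compared.

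Of the 9 regions, 1 was listed in all 6 libraries, 11.1% (exact 95% binomial interval 0.281% to 48.2%, for counting error only). Over all 56447 regions the share was 35.5%. Regions listed in 1 library only were 2 of 9, against 27.4% of all. The regions were of usual length, with a median of 447 bp against 438 bp, and a median of 15 reads against 17. Their density was 8.49 per Mb in the heavy chain windows, 39.8 in the kappa and 17.6 in the lambda window, against 19.7 over the genome. The covered length was 0.137% ± 0.0997 of the heavy chain windows, 0.49% ± 0.288 of the kappa and 0.826% ± 0.155 of the lambda window, against 0.571% ± 0.0527 of the genome (SD, n = 6 libraries).

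A region listed in all 6 libraries lay within 50 kb of 3 of the 9 genes, IGLC1, IGLC2 and IGLL5, which share the far lambda region. This held for 77.8% of protein-coding genes. IGKC had 4 regions of any support within 50 kb, IGHM, IGHD, IGLC1, IGLC2 and IGLL5 had 2, IGHG1 and IGHA1 had 1 and IGHA2 had 0. Protein-coding genes had a median of 4. Among the 10 B-cell marker genes the number was 1 to 27, with a median of 8, and 8 of the 10 had a region listed in all 6 libraries. The windows of longer genes are longer, so these counts are side by side and not tested. EBF1, a transcription factor of early B cells, had 27 regions, and PAX5, which fixes B-cell identity, had 11. CD79B and CD22, a part and a coreceptor of the B-cell receptor, had 1 and 3 and, like IGKC and all heavy chain members, none in all 6 libraries. The promoter region of MS4A1, the gene of CD20, stood at a mean of 86.1% of peaks weaker by −log10 q, above every member.

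**Figure D4:**
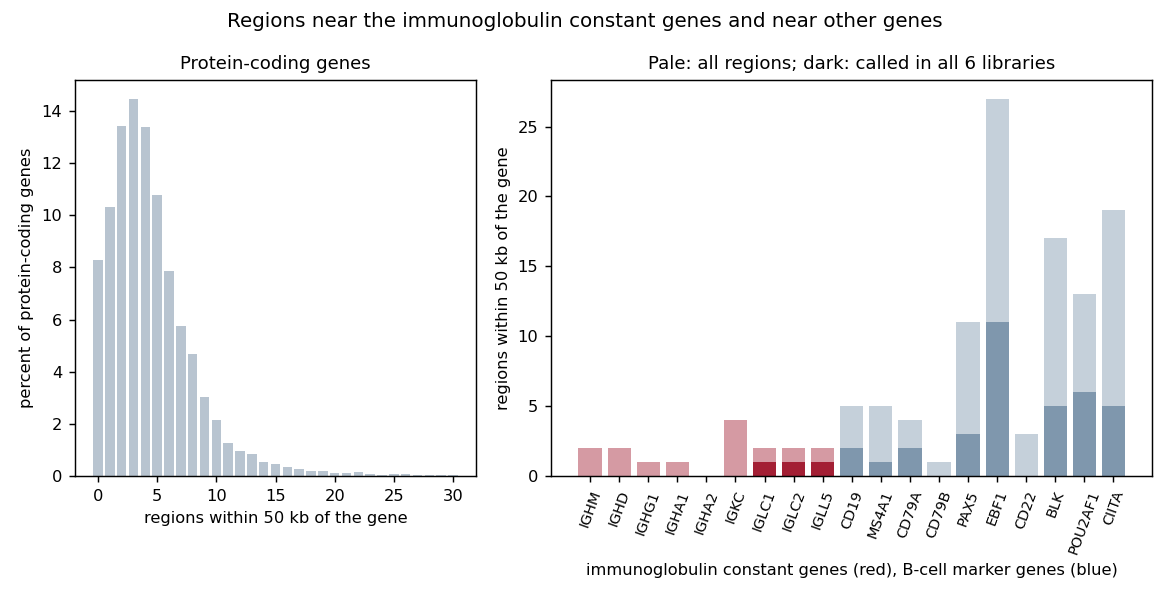
Left, the percent of protein-coding genes (y axis) by the number of regions within 50 kb of the gene (x axis, shown to 30). Right, the number of regions within 50 kb (y axis) of each member gene (red) and each B-cell marker gene (blue), with all regions in pale and those listed in all 6 libraries in dark colour. The member genes reach 4 regions at most, and the dark bars of 3 members stand for the same lambda region.

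Of 40 further genes of the loci and of antibody assembly, 2 had a region within 1 kb of a start. One was RPIA, which encodes an enzyme of the pentose phosphate pathway, whose region was listed in all 6 libraries at a mean of 99.6% of peaks weaker. The other was IGHJ6, through the IGHM-IGHJ6 region. JCHAIN, which joins IgM and IgA into polymers, had 9 regions within 50 kb, 2 of them in all 6 libraries. The surrogate light chain genes, the other lambda and gamma constant genes and the other joining segments had none at a start. For the constant genes, again, such a start is not the promoter of the antibody chain.

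Repeated sequence was measured because the authors kept only reads of high mapping quality. In the heavy chain windows, 28.8% of the 75-base words around IGHA2 and 17.3% around the other members occurred more than once in the genome, against 1.21% in the kappa window, 3.89% in the lambda window and 0.258% to 7.64% in the windows of the B-cell markers. Within gene bodies the share was 32.2% in IGHA1, 28.8% in IGHG1, 20.2% in IGHA2, 78.1% in IGLC2, 5.0% in IGLC1 and 0.336% in IGLL5. It was 0% in IGHM, IGHD and IGKC. The 30 kb 3′ of IGHA1 aligned over 88.2% of its length with the 30 kb 3′ of IGHA2, and the longest alignment had 6949 bp at 94.7% identity. The region 3′ of IGHA1 had 1 such copy, at chr14:106048408-106048646 with 94.6% identity, where no library listed a peak, and 14.9% of its own words were repeated. The other 8 regions held no repeated word. Taken as whole alignments, none of 95% identity or more was longer than 51 bases, and shorter stretches within an alignment were not scored. The kappa regions at 9.16 and 22.5 kb 5′ of IGKC had 1122 and 14349 hits elsewhere in the genome at 80% identity or more. Their longest hits had 316 and 90 bases, and the kind of repeat was not determined. The part of repeated sequence in the missing peaks was not tested.

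The regions elsewhere whose summit reads over the 6 libraries were most like those of the far lambda region had a Euclidean distance of 0.152 to 0.202 on the centred log2 scale, against a median of 1.36 over the other tested regions. They lay 107130 bp from the nearest start of TNS3, 188665 bp from TMEM200A and at the start of MRPL40. The strongest heavy chain and kappa regions were not compared in this way because at least 1 library did not list them.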

How the data were processed

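The authors mapped trimmed reads of 6 libraries to hg19 with Bowtie2 2.1.0 (submitters' notes), filtered for proper pairs and mapping quality, took out duplicates with Picard 1.79 and mitochondrial reads, and called peaks with MACS2. Each deposited list gives per peak a fold enrichment (a ratio), the −log10 of p and q, and a score made from q. The deposited values carry no read totals. Reads at a summit and its background were solved from fold and p, within 0.001 in −log10 p for 100% of peaks. Groups came from the labels, and purification in the first 2 protocols from the legend and methods. Peaks sharing 1 bp or adjoining were merged. In ranking regions, a mean percentile counted libraries without a peak as 0. Genes were GENCODE 44 (lifted to hg19), and the IGHA2 record comes from an older release. Named were regions in member bodies, the 3 strongest per locus, the region under 6 libraries with most reads, and those of largest change. Members and lists were chosen with earlier results of these data known. The methods give paired reads of 75 bases for the unpurified workflow, and no length for the old buffer. Tests used limma 3.58.1 (trend, Benjamini-Hochberg) in R 4.3.3 and SciPy 1.17.1, and copies blastn 2.17.0. Merging was checked with bedtools 2.31.1, and the scripts were tested on simulated data. Alternatives were other windows, peak and merging thresholds, scalings, a replicate block and each library left out.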

Additional observations from a re-analysis of the deposited data

How the results depend on the processing

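With windows of 25 kb the number of regions fell to 5, none of them in all 6 libraries (0%), and the covered length of the lambda locus was 0%, since both lambda regions lie further out. With windows of 100 kb, 2 of 11 regions (18.2%) were in all 6 libraries, and the covered length was 0.268% in the heavy chain, 0.322% in the kappa and 0.439% in the lambda locus. The heavy chain value was 0.231% with windows of 25 kb and 0.0678% with the 30136 strongest peaks per library. A stricter −log10 q of at least 5, the 30136 strongest peaks per library, merging over 200 bp and leaving out any library kept the number of regions within 1.5 times of 9. The region 3′ of IGKC stood, over the 4 libraries that list it, at a mean of 42.6% of peaks weaker by −log10 q, 58.9% when ranked by fold enrichment and 25.5% when ranked by summit reads; the cause was not tested. For the far lambda and IGHM-IGHJ6 regions both rankings moved the mean by less than 1 SD.

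For the far lambda region no alternative gave an adjusted p in limma under 0.729. Leaving out each library gave log2 differences of -0.19 to 0.45 for purified against old buffer, -0.27 to 0.20 for unpurified against old buffer and -0.49 to 0.15 for unpurified against purified. The other alternatives kept the sign. Over all regions the calls were 9 for purified against old buffer, 4 when scaled by the lowest background and 1 with the deposited fold enrichment, and 1 to 15 without 1 library. For unpurified against old buffer they were 4, and 1 with fold enrichment, and 0 to 10 without 1 library. For unpurified against purified they were 0, and 0 to 1 without 1 library. Without 1 library of a protocol, the remaining one was assumed to vary like the others. With a replicate block the calls were 10, 6 and 0 and the differences of the far lambda region 0.13, -0.04 and -0.17. Libraries of the same number share only a number: their deviations correlated at -0.00417 to 0.0146.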

Other observations

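Beyond the windows, the variable segments of the heavy chain locus held 15 regions over 882 kb, and 6 of them were listed in all 6 libraries. Over all regions 35.5% were listed in all 6 libraries, which is near this share, and the genome held 19.7 regions per Mb. Repeated sequence was not measured over the variable segments as a whole. Among 47 heavy chain variable genes, 1 had a region within 1 kb of its start (IGHV3-23, in 1 library with 11 reads). Among 81 variable pseudogenes, 9 had one, and 5 of these were listed in all 6 libraries. All 5 belong to the IGHVIII family, which has 17 annotated segments, 6 of them with a region. The family was singled out after its values were seen.

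The region at IGHVIII-26-1 (chr14:106765049-106765743) had 22 to 42 reads and that at IGHVIII-76-1 (chr14:107238806-107239904) 24 to 39. They stood at a mean of 79.8% and 81.0% of peaks weaker. IGHVIII-38-1 had 21 to 33 reads, IGHVIII-67-3 19 to 27 and IGHVIII-47-1 12 to 22. The 5 regions aligned with one another in all 10 pairs, at 67.4% to 74.5% identity over 375 to 644 bp.

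In the kappa locus 1 of 44 variable genes had a region at its start, IGKV6D-41, with 15 to 22 reads in 5 libraries. In the lambda locus it was 1 of 37, IGLV6-57, with 14 to 15 reads in 3 libraries. Beside these counts and that of the heavy chain variable genes, 62% of protein-coding genes had a region at a start.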
